A study of Mus musculus with 4 samples.

Results

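The 9 genes described here, Foxp3, Ikzf2, Ikzf4, Nrp1, Gpr83, Lrrc32, Il10, Ebi3 and Nt5e, are genes associated with regulatory T cells. They were taken by name from the table of 23990 gene symbols, and all 9 were found there, with 11 transcripts between them. The study asked how effector CD4 cells that had reached the central nervous system differ from those still in the lymph nodes in EAE, a mouse model of multiple sclerosis. All mice were wild type, C57BL/6 by the sample labels and C57BL/6J by the study's methods. They had been immunized with a MOG peptide in complete Freund's adjuvant, with pertussis toxin. Each of 2 tissues, taken when disease began, gave 2 libraries of sorted effector CD4 cells that carried CD44. The CNS libraries came from spinal cord, and the dLN libraries from a pool of cells of the draining lymph nodes. The sort was on effector CD4 cells as a whole, with no marker of regulatory T cells named in the gate. The study's methods state 4 h of stimulation with PMA and ionomycin after sorting, while the sample labels name no stimulation and no age or sex.

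Regulatory T cells are CD4 cells that restrain other immune cells. Their identity depends on the transcription factor Foxp3, and they act through surface receptors, through secreted cytokines such as IL-10 and through the production of adenosine outside the cell. In EAE they gather in the inflamed CNS and limit disease, but most of the genes named above are also used by effector T cells, so a transcript of one of them does not by itself mark a regulatory T cell.

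Levels are FPKM, summed over the transcripts of a gene. Sequencing depth, read from the steps between low FPKM values, was 20.9 M and 21.7 M fragments in CNS replicates 1 and 2 and 18.5 M and 22 M fragments in dLN replicates 1 and 2. All 9 genes reached a mean of at least 1 FPKM in at least one tissue and were tested with limma on log2(FPKM + 1) together with the other tested genes, 10634 in all. A positive log2 ratio means a higher level in CNS, and SE is its standard error. Adding 1 makes ratios of genes with low FPKM too small, and a gene is called when its Benjamini-Hochberg adjusted p is under 0.05. Nothing states that the libraries of a tissue came from separate animals, so p-values measure only the spread between these samples. With 2 libraries on each side, the smallest two-sided p an exact permutation test can give is 0.333.

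The libraries differed in several ways beside tissue. The sorted identity was seen in both tissues, with Cd4 at 502 and 531 FPKM in CNS and 82.0 and 66.7 FPKM in dLN, and Cd44 at 112 FPKM in each CNS library and at 176 and 157 FPKM in dLN. Cd8a was at most 0.834 FPKM in any library, while Cd8b1 was at 3.66 and 4.56 FPKM in CNS and at 3.38 FPKM in each dLN library. Over the T cell list, 7 of 13 genes were called higher and 3 lower in CNS, and the summed level was 4237 and 4377 FPKM in CNS and 2585 and 2477 FPKM in dLN, with Cd3g the most abundant in CNS and Lat in dLN. The T cell genes did not move together, as Cd44, Cd247 and Cd5 were called lower (-0.56, -0.41 and -0.29) and Cd2, Cd6 and Lat were not called. Without either 1 of the dLN libraries, only 1 was called lower.

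CNS replicate 2 stood apart in myeloid transcripts. The myeloid list, of which 18 of 20 genes were in the table, summed to 63.6 FPKM in CNS replicate 1, 434 FPKM in CNS replicate 2, and 8.84 and 6.41 FPKM in dLN. Its most abundant gene in CNS replicate 2, S100a8, reached 101 FPKM there and had a value of 0 elsewhere, and Lyz2 was at 3.22 and 92.1 FPKM in CNS and at most 0.0621 FPKM in dLN. Of the 15 myeloid genes tested, 8 were called higher in CNS (15 without CNS replicate 1, 12 without CNS replicate 2 and 5 without either 1 of the dLN libraries), and 10 genes of the list, Csf1r and C1qa among them, were listed at 0 in both dLN libraries.

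The dendritic cell list, led by Itgax in CNS replicate 1, Ccl22 in CNS replicate 2 and Batf3 in dLN, summed to 10.5 and 41.2 FPKM in CNS and 14.3 and 5.27 FPKM in dLN, with 1 of 9 tested genes called in each direction, but 6 called higher without CNS replicate 1. The endothelial list, led by Pecam1, summed to 26.4 and 40.3 FPKM in CNS and 15.1 and 12.1 FPKM in dLN, with 5 of 6 tested genes called higher. Lists of CD8 T and NK cells (led by Klrk1 in CNS and Cd8b1 in dLN) and of B and plasma cells (led by Cd79b in CNS and Sdc1 in dLN) summed to at most 23.0 and 3.45 FPKM in any library, with 3 of 4 and 1 of 2 tested genes called higher in CNS. The neural list, nearly all of it Mbp, summed to 50.02 and 50.1 FPKM in CNS and 55.9 and 58.3 FPKM in dLN. Of 3 tested genes, Mbp was called lower and Gfap higher, but neither without either 1 of the dLN libraries. Mbp also lost its call without CNS replicate 2. Gfap was at 0.655 and 2.51 FPKM in CNS and at 0 in dLN. Snap25 reached 1.80 FPKM in CNS replicate 2, and Mog and Olig2 were at most 0.0307 FPKM in every library.

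Genes that PMA and ionomycin induce were lower in CNS, with 14 of 17 called lower and 1, Cd69, called higher. Their summed level was 1297 and 1714 FPKM in CNS and 11397 and 13391 FPKM in dLN. Cd69 led in CNS, and Il2 led in dLN at 5363 and 6176 FPKM, against 18.2 and 38.8 FPKM in CNS. Sex-linked transcripts also followed tissue. The CNS libraries held Y-linked Eif2s3y at 44.7 and 34.7 FPKM, and the dLN libraries had a value of 0 for it. Xist showed the reverse, with 26.6 and 22.3 FPKM in dLN and no more than 0.0026 FPKM in either CNS library. The tissue of the cells and the sex of the mice therefore cannot be told apart, and the part that other cell types, stimulation or sex had in the results below was not tested.

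**Figure D1:**
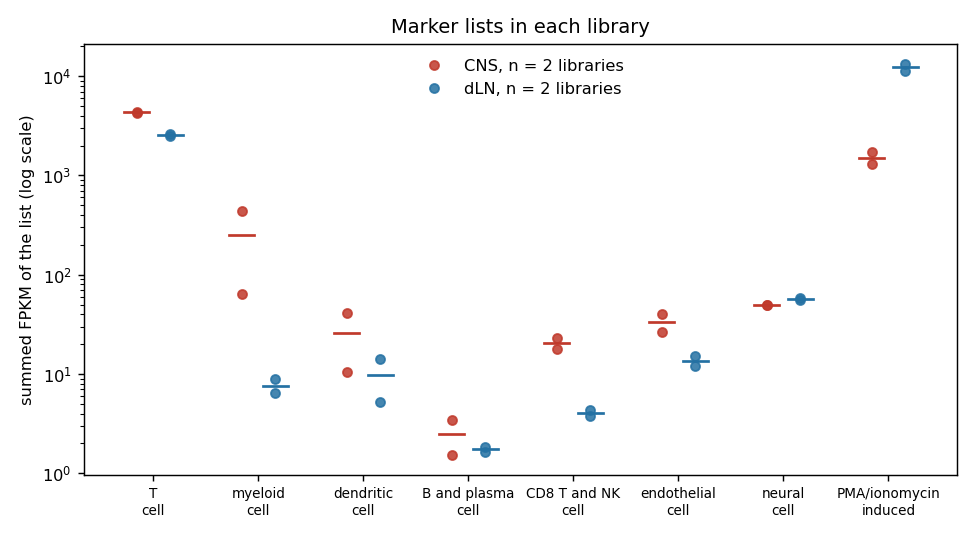
Summed FPKM of each marker list on a log axis, with a point for each library, a line at the tissue mean, CNS in red and dLN in blue. The myeloid sum of CNS replicate 2 (434 FPKM) lies far above that of CNS replicate 1 (63.6 FPKM), and the sum of genes induced by PMA and ionomycin is higher in both dLN libraries (11397 and 13391 FPKM) than in both CNS libraries (1297 and 1714 FPKM).

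Between the tissues, 6 of the 9 genes (Foxp3, Ikzf2, Nrp1, Gpr83, Lrrc32 and Il10) were called lower in CNS, where 37.2% of all genes tested were called lower. Nt5e was the 1 gene called higher, against 37.8% of all genes tested, and Ikzf4 and Ebi3 were not called. Calls in either direction thus numbered 7 of 9, near the 74.9% of all genes tested. The 6 genes called lower all had a log2 ratio of -1 or less, as 18.2% of all genes tested did with a call, and Nt5e had one of 1 or more, as 21% did. In 8 of the 9 genes the libraries of one tissue lay wholly above those of the other, against 89.4% of all genes tested. The median log2 ratio was -1.21 for the 9 genes and 0.05 for all genes tested. The marker lists above and the lists of related genes below are to be read beside the same 37.2% called lower and 37.8% called higher, or beside 8363 lower and 1034 higher of 10634 genes when scaled to T cell genes. In RNA of bulk sorted cells, fewer cells of a type and less RNA per cell cannot be told apart.

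**Figure D2:**
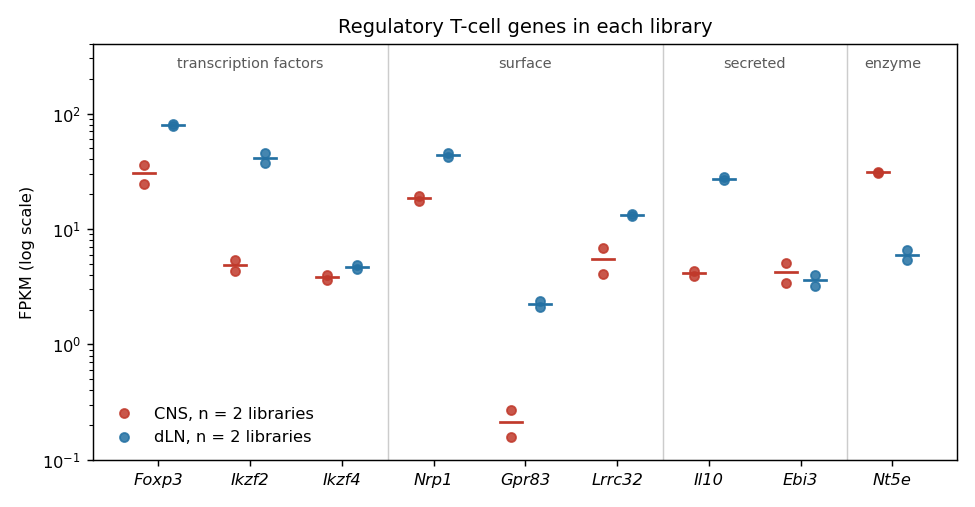
FPKM of the 9 genes on a log axis, grouped by role, with a point for each library, a line at the mean of the 2 libraries of a tissue, CNS in red and dLN in blue. Foxp3, Ikzf2, Nrp1, Gpr83, Lrrc32 and Il10 lie lower in both CNS libraries, Nt5e lies higher, and the points of Ebi3 overlap.

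Foxp3, the transcription factor that defines regulatory T cells, had values of 24.7 and 35.9 FPKM in CNS and of 81.6 and 78.2 FPKM in dLN. Means were 30.3 ± 7.95 and 79.9 ± 2.36 FPKM (SD, n = 2 each), 2.64-fold higher in dLN. Both CNS libraries were below both dLN libraries, and the CNS libraries differed more from each other than the dLN libraries did. The log2 ratio was -1.39 (SE 0.19, limma adjusted p = 0.00194) and lay between -1.13 without CNS replicate 1 and -1.66 without CNS replicate 2, the library with the higher myeloid sum. These values rest on about 1863, 2778, 5405 and 6158 fragments, in the same order of libraries.

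Foxp3 (Entrez gene 20371) lies on the plus strand of chromosome X, from 7579676 to 7595243 in mm10. Of its 3 transcripts in the table, the one that begins at 7579676 and is 3765 bases long held 97.9% and 97.3% of its FPKM in CNS and 95.8% and 97.3% in dLN. The transcript that begins further downstream, at 7580483, held 2.06% and 2.73% in CNS and 4.20% and 2.70% in dLN. Use of these transcripts therefore overlapped between tissues. The remaining transcript, 3832 bases long, also begins at 7579676 and was at no more than 1.52e-05 FPKM in any library. As the tissues differed in sex-linked transcripts, genes of chromosome X were counted too, with Foxp3 and Xist among them. Of 325 tested, 107 (32.9%) were called lower and 132 higher in CNS, and their median log2 ratio was 0.11. Over all genes tested, 37.2% were called lower and 37.8% higher. The annotation places Ccdc22 on the opposite strand across the 3' end of Foxp3, the noncoding Gm36995 on that strand across the whole gene and the noncoding Flicr across both starts. Flicr lies on the same strand as Foxp3, so strand would not separate its reads from those of Foxp3. As no strand setting is stated, reads of the overlaps with Ccdc22 and Gm36995 cannot be told apart either. Of these genes only Ccdc22 is in the table. Ccdc22 was at 7.38 and 8.18 FPKM in CNS and at 6.78 and 5.62 FPKM in dLN.

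The 250 bases before the transcript start were taken from RefSeq (GRCm38.p6, the same assembly as mm10), where 5 of the 9 genes had an entry. Shown are both starts of Foxp3, because the most abundant transcripts of each differ widely in level. Nrp1, which also fell in CNS, and Nt5e, which rose, are shown too. Motifs searched on both strands were the TATA box TATAAA, the NFAT core GGAAA, the AP-1 motif TGANTCA, the STAT motif TTCNNNGAA and the forkhead motif TGTTTAC, and capitals mark each match. All windows are on the plus strand, at chrX:7579426-7579675 and chrX:7580233-7580482 for Foxp3, chr8:128358823-128359072 for Nrp1 and chr9:88327359-88327608 for Nt5e.
Foxp3, start at 7579676: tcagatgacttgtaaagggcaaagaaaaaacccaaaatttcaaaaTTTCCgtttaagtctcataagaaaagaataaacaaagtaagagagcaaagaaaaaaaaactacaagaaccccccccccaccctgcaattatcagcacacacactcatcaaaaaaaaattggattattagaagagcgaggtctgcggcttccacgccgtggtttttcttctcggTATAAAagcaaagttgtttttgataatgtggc
Foxp3, start at 7580483: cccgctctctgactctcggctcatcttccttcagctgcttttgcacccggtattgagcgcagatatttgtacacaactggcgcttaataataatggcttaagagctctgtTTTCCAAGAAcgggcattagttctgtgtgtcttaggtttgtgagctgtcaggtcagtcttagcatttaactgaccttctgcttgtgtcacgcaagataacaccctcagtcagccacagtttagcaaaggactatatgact
Nrp1: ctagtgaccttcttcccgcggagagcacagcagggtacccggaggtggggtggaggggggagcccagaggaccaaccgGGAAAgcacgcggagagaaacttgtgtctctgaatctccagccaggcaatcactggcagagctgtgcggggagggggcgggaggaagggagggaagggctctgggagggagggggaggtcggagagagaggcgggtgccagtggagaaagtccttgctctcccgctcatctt
Nt5e: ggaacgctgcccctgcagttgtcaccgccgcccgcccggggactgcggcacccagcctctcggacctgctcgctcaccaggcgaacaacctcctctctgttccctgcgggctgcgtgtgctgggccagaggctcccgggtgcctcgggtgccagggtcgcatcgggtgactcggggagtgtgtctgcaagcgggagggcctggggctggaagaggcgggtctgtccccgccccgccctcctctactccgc

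The window of the main Foxp3 start held 1 TATA box, from 32 to 27 bases before the start, and 1 NFAT core on the opposite strand, from 205 to 201 bases before it. TATAAA occurred in 12.4% of 32851 promoter windows of the same length and GGAAA in 55.6%. The window of the other Foxp3 start had no TATA box, and its NFAT core overlapped a STAT motif, which 7.02% of windows held. Nrp1 had 1 NFAT core, and the Nt5e window held none of the 5 motifs. Of the windows not shown, that of Ebi3 held 1 NFAT core. That of Gpr83, which was called lower in CNS, held none of the 5 motifs, and its start lay 44 bases before that of the deposited transcript. AP-1 and forkhead motifs, found in 6.75% and 3.17% of windows, occurred in none of the windows shown. The main Foxp3 window was 37.6% G and C, the Nrp1 window 64.4% and the Nt5e window 72.0%, beside a median of 52.4% over all windows. These matches describe letters in the window and were not tested for a role in transcription.

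Ikzf2 (Entrez gene 22779) encodes Helios, an Ikaros family zinc finger factor found in many regulatory T cells. It was at 4.28 and 5.42 FPKM in CNS and at 37.0 and 45.2 FPKM in dLN, means of 4.85 ± 0.801 and 41.1 ± 5.80 FPKM (SD, n = 2 each). Its level was 8.48-fold higher in dLN, with a log2 ratio of -2.85 (SE 0.15, limma adjusted p = 0.00014), and 1.95% of all genes tested had a lower ratio. Both CNS libraries were low, with no overlap between the tissues.

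Ikzf4 (Entrez gene 22781), which encodes Eos, a partner of Foxp3 in gene silencing, was at 3.60 and 4.01 FPKM in CNS and at 4.53 and 4.85 FPKM in dLN. Both CNS libraries were slightly below both dLN libraries, but the gene was not called (log2 ratio -0.24, 95% interval -0.53 to 0.04, limma adjusted p = 0.0933). It was called lower with libraries scaled to the same FPKM sum (log2 ratio -0.41, limma adjusted p = 0.019, range 7.85e-06 to 0.309 over all alternatives). The Ikaros family of 5 genes held 2 called lower and none higher, or 5 lower when scaled to T cell genes, with Ikzf3 (Aiolos) falling by 0.68 on the log2 scale and Ikzf1 (Ikaros), the most abundant, at 103 and 96.3 FPKM in CNS and 92.7 and 94.8 FPKM in dLN. Ikzf1 and Ikzf5 (Pegasus) were not called (0.09 and 0.24, limma adjusted p of 0.366 and 0.071). Ikzf2 and Ikzf3 thus moved in the direction of Foxp3, Ikzf2 by far the more.

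Nrp1 (Entrez gene 18186) encodes neuropilin, a semaphorin and VEGF receptor found on thymus-derived regulatory T cells. It was at 19.1 and 17.6 FPKM in CNS and at 41.6 and 45.9 FPKM in dLN, means of 18.4 ± 1.08 and 43.8 ± 3.05 FPKM (SD, n = 2 each). The log2 ratio was -1.21 (SE 0.10, limma adjusted p = 0.000389). Its level was lower in both CNS libraries, without overlap, and 2.38-fold higher in dLN.

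Of 10 genes listed as neuropilins, their ligands and partners, 6 were tested, with 2 called higher and 2 lower in CNS, or 1 higher and 5 lower when scaled to T cell genes. Sema4a, a semaphorin ligand of neuropilin on regulatory T cells, was at 55.1 and 56.1 FPKM in CNS and at 5.34 and 2.10 FPKM in dLN (log2 ratio 3.67, limma adjusted p = 0.000587). Plxna1, a plexin coreceptor, was low in both tissues, at 0.361 and 0.657 FPKM in CNS and at 3.01 and 3.79 FPKM in dLN, and fell by 1.54 on the log2 scale. The ligand gene was thus high in the CNS libraries in which Nrp1 was low. Gipc1, which binds the tail of neuropilin, had a log2 ratio of 0.62 and was not called without CNS replicate 2 or without dLN replicate 2. Vegfa and Plxnb2 were not called, with log2 ratios of -0.41 and -0.70, but both were called lower without CNS replicate 2 (-1.34 and -1.19). Vegfa was at 0.377 and 4.04 FPKM in CNS and at 2.36 and 2.63 FPKM in dLN. Its CNS libraries thus lay on either side of the dLN libraries, and its call also changed without CNS replicate 1. Nrp2, Sema3a, Plxna3 and Plxna4 were each below 1 FPKM in every library.

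Gpr83 (Entrez gene 14608), which encodes a G protein-coupled receptor enriched in regulatory T cells, was the least abundant of the 9 genes. It was at 0.159 and 0.269 FPKM in CNS and at 2.12 and 2.39 FPKM in dLN. The CNS values rest on 7 and 12 fragments, with exact 95% Poisson intervals of 0.0641 to 0.328 FPKM and 0.139 to 0.470 FPKM that cover counting error only. The upper ends of these intervals lie below both dLN values, for which no interval was computed. Mean FPKM was 10.5-fold higher in dLN, while the log2 ratio was -1.42 (SE 0.15, limma adjusted p = 0.000828) because 1 was added to each value, and it was -2.92 with 0.1 added. Gpr83 passed the filter on low values through dLN alone. A gene that passes this way has a CNS mean under 1 FPKM by definition, so the separation of the tissues is not independent support.

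Lrrc32 (Entrez gene 434215) encodes GARP, which holds latent TGF-beta on the cell surface. It was at 4.11 and 6.84 FPKM in CNS and at 13.4 and 13.0 FPKM in dLN, with means of 5.48 ± 1.93 and 13.2 ± 0.271 FPKM (SD, n = 2 each). Both CNS libraries were lower, although CNS replicate 2 lay well above CNS replicate 1. The log2 ratio was -1.16 (SE 0.22, limma adjusted p = 0.00622), or -0.86 without CNS replicate 1 and -1.47 without CNS replicate 2, and it was called in both cases (limma adjusted p of 0.0122 and 0.00645).

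The list of 17 genes around GARP and latent TGF-beta had 12 tested, of which 6 were called lower and 4 higher in CNS (8 lower and 3 higher when scaled to T cell genes). Furin, the protease that cleaves the TGF-beta precursor, was at 92.5 and 132 FPKM in CNS and at 305 and 328 FPKM in dLN, and fell by 1.51. Of the integrin subunits listed for the release of active TGF-beta, Itgb6 was at 0 in every library, while Itgav and Itgb8 were low in CNS. Itgav was at 7.84 and 8.63 FPKM in CNS and at 68.0 and 72.3 FPKM in dLN, and Itgb8 at 0.0812 and 0.286 FPKM in CNS and at 17.9 and 20.2 FPKM in dLN. Their log2 ratios were -2.95 and -4.09 (limma adjusted p = 8.12e-05 for each). Furin, Itgav and Itgb8 thus moved in the direction of Lrrc32. Hsp90b1, the chaperone GARP needs, fell by 0.83 and was not called without either 1 of the CNS libraries. The receptor chains of TGF-beta differed in direction, with log2 ratios of 2.17 for Tgfbr2 and -1.33 for Tgfbr1, and the inhibitor Smad7 had one of 2.53. Tgfbr3 was called higher too (0.92), though not without either 1 of the dLN libraries. When scaled to T cell genes, Tgfbr2 and Smad7 were still called higher (0.39 and 0.84), as was the ligand Tgfb3 (0.87), at 2.14 and 2.31 FPKM in CNS and at 0.0674 and 0.141 FPKM in dLN (log2 ratio 1.55). Tgfb1 itself was at 73.8 and 106 FPKM in CNS and at 84.5 and 81.2 FPKM in dLN and was not called (log2 ratio 0.09, limma adjusted p = 0.67), though it was called without CNS replicate 1.

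**Figure D3:**
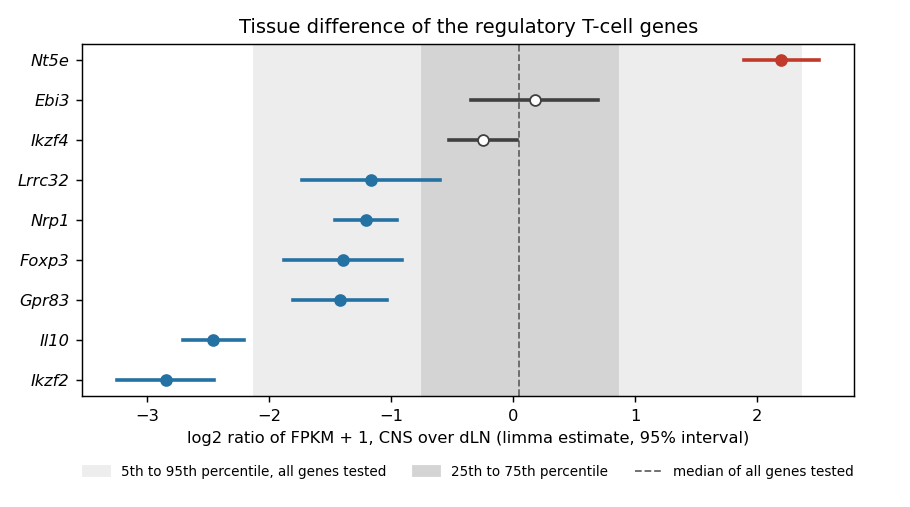
Log2 ratio of CNS over dLN on the FPKM + 1 scale for each of the 9 genes, as a point with its 95% interval from limma, blue when called lower in CNS, red when called higher and open when not called. Grey bands hold the central 50% and 90% of the 10634 genes tested, and the dashed line their median (0.05). Ikzf2 (-2.85) and Il10 (-2.46) lie below the wider band, and Ebi3 (0.18) turns negative when libraries are scaled to T cell genes or without CNS replicate 2.

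Il10 (Entrez gene 16153) encodes the cytokine IL-10, which effector T cells also secrete. It was at 3.93 and 4.35 FPKM in CNS and at 26.5 and 28.0 FPKM in dLN, means of 4.14 ± 0.299 and 27.2 ± 1.06 FPKM (SD, n = 2 each). The log2 ratio was -2.46 (SE 0.10, limma adjusted p = 9e-05), a 6.57-fold higher level in dLN. The libraries of a tissue lay close together, far from those of the other tissue. Of the genes that PMA and ionomycin induce, given above, 14 of 17 were called lower and 1 higher in CNS. Whether stimulation had a part in the level of Il10 was not tested.

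Most genes that receive and pass on the IL-10 signal moved the other way on the deposited scale. Of the 8 genes of that list, Il10 included, 6 were called higher and 1, Il10 itself, lower in CNS, or 2 higher and 3 lower when scaled to T cell genes. Il10ra, the receptor chain that binds IL-10, was at 16.2 and 17.6 FPKM in CNS and at 2.46 and 2.04 FPKM in dLN (log2 ratio 2.46, limma adjusted p = 0.000103), and Il10rb, the shared chain, had a log2 ratio of 1.95. Their level was high in both CNS libraries, where Il10 was low. Log2 ratios were 1.66 for the kinase Jak1, 1.01 for Tyk2, 2.39 for the feedback inhibitor Socs3 and 1.51 for Bcl3. Stat3 was not called (0.23, limma adjusted p = 0.0559), but it was without CNS replicate 1. When scaled to T cell genes, Il10ra and Socs3 were still called higher (0.94 and 0.65) while Jak1, Tyk2 and Bcl3 had log2 ratios of -0.15, -0.67 and -0.20.

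Of 16 regulators of Il10 in CD4 cells, 7 were called lower and 6 higher in CNS, or 13 lower and 2 higher when scaled to T cell genes. The transcription factor Irf4 was at 30.8 and 39.7 FPKM in CNS and at 348 and 362 FPKM in dLN (log2 ratio -3.31, limma adjusted p = 9.15e-05). Egr2 fell by 4.19 and the mRNA decay factor Zfp36l1 by 2.13. Bhlhe40, a repressor of Il10 in T cells, was at 361 and 440 FPKM in CNS and at 62.2 and 49.5 FPKM in dLN (log2 ratio 2.82, limma adjusted p = 0.000153). Other promoters of Il10 were called higher, with log2 ratios of 1.33 for Maf, 0.91 for Nfil3 and 0.64 for Prdm1, so promoters of Il10 moved in both directions. All 3 were called lower when scaled to T cell genes (-0.39, -0.86 and -1.04), and Prdm1 was not called without either 1 of the CNS libraries or without dLN replicate 2. Zfp36, whose product promotes the decay of cytokine mRNAs, rose too, with a log2 ratio of 2.49, and Ets1 had one of 1.5, which became -0.31 when scaled to T cell genes.

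Ebi3 (Entrez gene 50498) encodes a subunit that pairs with p28 in IL-27 and with p35 in IL-35. It was at 3.37 and 5.10 FPKM in CNS and at 3.18 and 3.99 FPKM in dLN, on 72.0, 108, 58.0 and 86.9 fragments. The tissues overlapped, and the gene was not called (log2 ratio 0.18, 95% interval -0.35 to 0.70, limma adjusted p = 0.455). The sign turned without CNS replicate 2 (-0.06).

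Its partner subunits were near the limit of detection. Il12a (p35) was at 0.0426 and 0.214 FPKM in CNS and at 0 and 0.0416 FPKM in dLN, and Il27 (p28) was listed at 0 except in CNS replicate 2, at 0.181 FPKM. Il12b and Il23a were below 1 FPKM in every library. Of 11 genes of the IL-12 family and its receptors, 6 were tested, with 2 called higher and 2 lower in CNS (1 and 5 when scaled to T cell genes). The receptor chain Il12rb2 was at 39.2 and 35.3 FPKM in CNS and at 1.95 and 0.983 FPKM in dLN (log2 ratio 3.98), and Il27ra, the specific chain of the IL-27 receptor, had a log2 ratio of 1.44, which became -0.33 when scaled to T cell genes. Il6st, which encodes the shared chain gp130, was at 3.93 and 6.66 FPKM in CNS and at 44.5 and 57.1 FPKM in dLN (log2 ratio -3.06), and Il23r fell by 2.38. Receptor chains that Ebi3-containing cytokines use thus differed in opposite directions. Il12rb1 was not called (0.18, limma adjusted p = 0.358), but it was without dLN replicate 1.

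Nt5e (Entrez gene 23959) encodes CD73, the surface enzyme that turns AMP into adenosine. It was at 30.8 and 31.3 FPKM in CNS and at 6.63 and 5.36 FPKM in dLN, means of 31.0 ± 0.363 and 5.99 ± 0.896 FPKM (SD, n = 2 each). The level was 5.18-fold higher in CNS, with a log2 ratio of 2.20 (SE 0.12, limma adjusted p = 0.000142). Both CNS libraries were high, and of all genes tested 94.2% had a lower ratio. CD73 is not confined to regulatory T cells among CD4 cells, and the cells that carried the transcript are not resolved in these libraries.

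Of 14 genes listed for the adenosine pathway, 9 were tested, and 5 were called higher and 4 lower in CNS, or 4 higher and 5 lower when scaled to T cell genes. Entpd1, which encodes CD39, the enzyme that supplies CD73 with AMP, was at 16.8 and 16.9 FPKM in CNS and at 0.847 and 0.564 FPKM in dLN (log2 ratio 3.39, limma adjusted p = 8.95e-05). Dpp4 (CD26), which binds adenosine deaminase, and the ectonucleotidase Enpp1 had log2 ratios of 2.95 and 1.69. These genes were thus higher in both CNS libraries, and Entpd1, Dpp4, Enpp1 and Nt5e were also called higher when scaled to T cell genes (2.11, 1.52, 0.63 and 0.52).

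The adenosine transporter Slc29a1 was at 19.7 and 25.3 FPKM in CNS and at 82.1 and 88.1 FPKM in dLN (log2 ratio -1.88), and adenosine kinase, Adk, was at 4.52 and 4.63 FPKM in CNS and at 34.3 and 40.6 FPKM in dLN (log2 ratio -2.78). Slc29a2 fell by 2.07. Adora2a, the main adenosine receptor of T cells, was at 20.4 and 25.1 FPKM in CNS and at 35.2 and 38.2 FPKM in dLN (log2 ratio -0.67, limma adjusted p = 0.00656). The receptor was thus lower where Nt5e was higher. Ada was called higher by a narrow margin (0.44, limma adjusted p = 0.0455) and lost its call without CNS replicate 1 or either dLN library, and its log2 ratio was -0.88 when scaled to T cell genes. Adora1, Adora2b, Adora3, Entpd3 and Enpp3 were below 1 FPKM in every library.

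The order of the 9 genes by FPKM, a scale per length of transcript, differed between tissues. In CNS, Nt5e and Foxp3 led, and the Nt5e libraries lay between those of Foxp3, so they did not differ beyond their spread. Nrp1 followed, then Lrrc32, Ikzf2, Ebi3, Il10 and Ikzf4, each overlapping the next, with Gpr83 last. In dLN, Foxp3 led, followed by Nrp1 and Ikzf2, whose libraries overlapped, then Il10, Lrrc32, Nt5e, Ikzf4, Ebi3 and Gpr83 without overlap between neighbours. Foxp3 exceeded 78.1% of all genes tested in mean CNS level and 90.8% in mean dLN level. For Nt5e these shares were 78.5% and 37.9%.

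Set against Foxp3 in the same library, which removes any scaling of libraries, the other 8 genes fell into 3 patterns. Nrp1 was at 77.6% and 49.0% of the Foxp3 FPKM in CNS and at 51.0% and 58.7% in dLN. Lrrc32 was at 16.7% and 19.1% in CNS and at 16.4% and 16.6% in dLN. For Nrp1 the CNS libraries lay on either side of the dLN libraries, a wide spread that left no direction. For Lrrc32 both CNS libraries lay above both dLN libraries, but the gap between tissues was smaller than the spread within CNS.

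Ikzf2 was at 17.4% and 15.1% of the Foxp3 FPKM in CNS and at 45.4% and 57.8% in dLN. Il10 was at 15.9% and 12.1% in CNS and at 32.5% and 35.8% in dLN, and Gpr83 at 0.65% and 0.75% in CNS and at 2.59% and 3.05% in dLN. Relative to Foxp3, these 3 genes were thus 3.18-, 2.43- and 4.05-fold higher in dLN, with no overlap between tissues.

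Ikzf4 was at 14.6% and 11.2% of the Foxp3 FPKM in CNS and at 5.55% and 6.20% in dLN, and Ebi3 at 13.7% and 14.2% in CNS and at 3.9% and 5.10% in dLN. Nt5e was at 125% and 87.2% in CNS and at 8.12% and 6.85% in dLN. These 3 genes were 2.19-, 3.10- and 14.2-fold higher in CNS relative to Foxp3, again without overlap. All of these proportions share the Foxp3 value of their library, and no test beyond the overlap was made. Foxp3 was 2.64-fold higher in dLN, so a gene with equal FPKM in both tissues lies higher in CNS on this scale by construction. Ikzf4 and Ebi3 were not called on their own FPKM. The share of all genes without overlap was not computed relative to Foxp3, and on FPKM itself it was 89.4% of all genes tested.

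**Figure D4:**
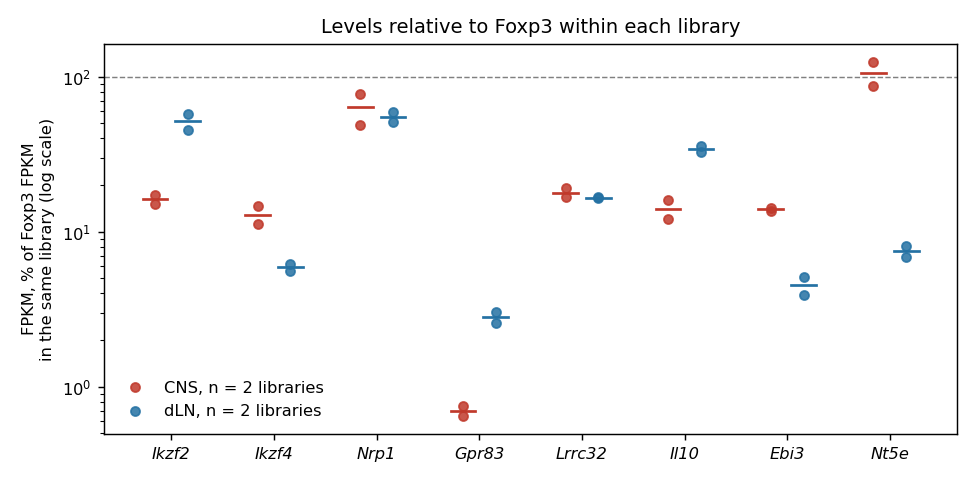
FPKM of 8 genes as a percent of the Foxp3 FPKM in the same library, on a log axis, with a point for each library and a line at the tissue mean. Ikzf2, Gpr83 and Il10 lie lower in CNS (red) than in dLN (blue), Ikzf4, Ebi3 and Nt5e lie higher, and the points of Nrp1 overlap.

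The T cell genes Cd3d, Cd3e, Cd3g, Cd4, Cd2 and Lck had a geometric mean of 448 and 454 FPKM in CNS and 136 and 120 FPKM in dLN, 3.53-fold higher in CNS. They are 6 of the 13 genes of the T cell list, whose median log2 ratio was 0.65, and 5 of the 6 had ratios of 1.58 to 2.83. Everything scaled to T cell genes therefore depends on the genes chosen, and a scale from the whole list was not tested. Foxp3 came to 5.51% and 7.91% of this mean in CNS and to 60.1% and 65.4% in dLN. Scaling each library to this mean shifted the median log2 ratio of the scaled genes by -1.57, and the calls over all genes from 4016 higher and 3952 lower to 1034 higher and 8363 lower. On that scale Foxp3 had a log2 ratio of -3.17, Ikzf4 and Ebi3 were called lower (-1.70 and -1.26), and Nt5e was still called higher (0.52). Relative to the median of all genes there, the ratios were -1.65 for Foxp3, -2.93 for Ikzf2, -2.51 for Il10, -1.43 for Nrp1, -1.23 for Lrrc32, -0.71 for Gpr83, -0.18 for Ikzf4, 0.26 for Ebi3 and 2.04 for Nt5e. Taking the median away removes most of the shift by construction, so these ratios do not test the order of the genes.

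Of 23 surface receptors used by regulatory T cells, 13 were called lower and 6 higher in CNS, the median log2 ratio being -0.63 (20 lower and 3 higher when scaled to T cell genes). Il2ra, the CD25 chain of the IL-2 receptor, was at 56.7 and 64.5 FPKM in CNS and at 412 and 359 FPKM in dLN (log2 ratio -2.65, limma adjusted p = 9.39e-05). Tnfrsf4 (OX40) was at 136 and 182 FPKM in CNS and at 847 and 954 FPKM in dLN, and fell by 2.51. Tnfrsf9 (4-1BB) fell by 1.57, Tigit by 1.13 and Cd83 by 4.57. Cd83 was at 1.01 and 8.10 FPKM in CNS, and its log2 ratio was -5.66 without CNS replicate 2. Among the genes called higher were Entpd1 and Dpp4, given above, Klrg1 (2.76, or 1.21 when scaled to T cell genes) and Tnfrsf18, which encodes GITR (1.33, or -0.48 when scaled). Activation raises several of these receptors on any T cell. Ctla4, an inhibitory receptor that regulatory T cells hold at a high level, fell by 0.41 and was not called without dLN replicate 2. Il2rb had a log2 ratio of 0.78 but was not called without CNS replicate 2, and it was called lower when scaled to T cell genes (-1.04).

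Of 32 partners and upstream factors of Foxp3, 19 were called lower and 10 higher in CNS, and their median was -0.64 (26 lower and 2 higher when scaled to T cell genes). Stat5a, which carries the IL-2 signal to Foxp3, was at 13.4 and 19.6 FPKM in CNS and at 121 and 123 FPKM in dLN (log2 ratio -2.84, limma adjusted p = 0.000215), and Batf fell by 1.44. Runx3 was at 51.9 and 58.7 FPKM in CNS and at 9.38 and 8.83 FPKM in dLN (log2 ratio 2.48, limma adjusted p = 9.15e-05), and Tcf7 had a log2 ratio of 2.40. Both were also called higher when scaled to T cell genes (0.74 and 0.62). Cbfb, the partner of the Runx factors, had a log2 ratio of 0.64, which became -1.16 on that scale. The list thus held genes called in both directions.

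Effector molecules linked to regulatory T cells were divided, with 9 of 18 tested called higher and 7 lower in CNS (4 and 12 when scaled to T cell genes). Areg, an EGF receptor ligand used in tissue repair, was at 12.9 and 24.4 FPKM in CNS and at 181.2 and 200.2 FPKM in dLN (log2 ratio -3.35, limma adjusted p = 0.000492). Plagl1 fell by 5.29 and Dusp4 by 1.76. Fgl2, which encodes a secreted suppressor of T cells, was at 106 and 82.2 FPKM in CNS and at 2.72 and 0.998 FPKM in dLN (log2 ratio 5.11, limma adjusted p = 0.000206), and S1pr1 had a log2 ratio of 4.97. Macrophages also make Fgl2, and their part in its level was not tested. Lgals1 and Gzmb, with log2 ratios of 2.11 and 1.02, were each not called without either 1 of the CNS libraries. Capg was not called (0.47, limma adjusted p = 0.14) except without dLN replicate 1.

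**Figure D5:**
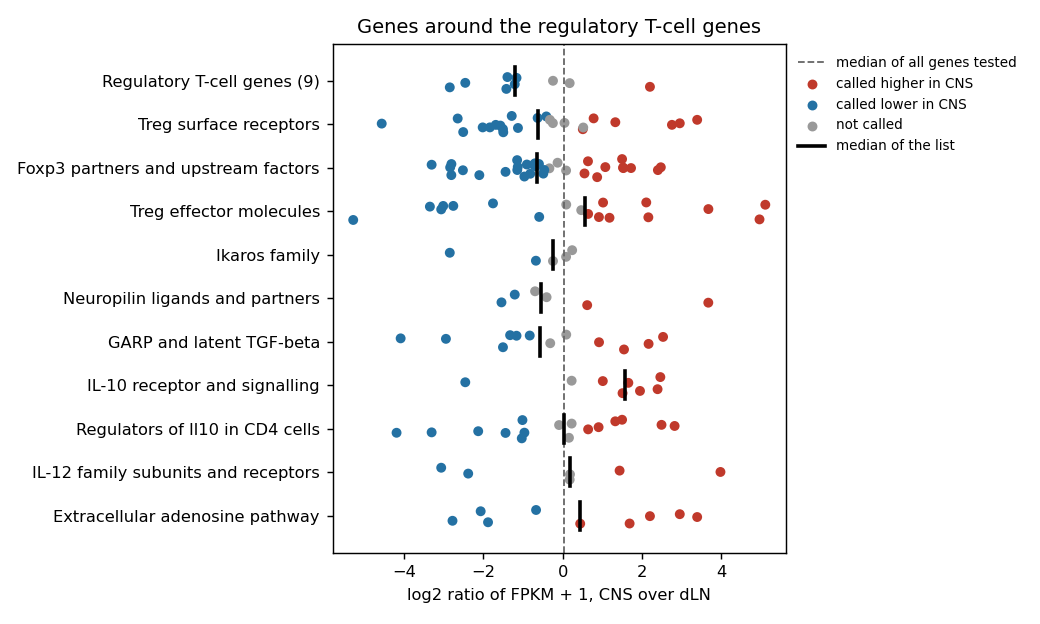
Log2 ratio of CNS over dLN on the FPKM + 1 scale for every tested gene of the 9 genes and of 10 lists around them, 1 point per gene, red when called higher in CNS, blue when called lower and grey when not called. Black bars are list medians and the dashed line is the median of all genes tested (0.05). The 9 genes have a median of -1.21 and the IL-10 receptor and signalling list one of 1.58, which becomes -0.17 when libraries are scaled to T cell genes.

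Across the 10 lists without the 9 genes themselves, 54 of 116 tested genes were called lower and 45 higher, or 87 lower and 19 higher when scaled to T cell genes. Lists share several entries with each other and with the 9 genes.

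The 5 genes whose values over the 4 libraries were most like those of Foxp3 were Psmg3, Polrmt, Gusb, Lpcat3 and Ctu1, among 8140 other genes whose mean reached 5 FPKM in CNS or in dLN. Their root mean square difference from Foxp3, on log2 values centred on the mean of each gene, was between 0.042 and 0.061. Psmg3, which encodes a proteasome assembly chaperone, was at 11.4 and 16.1 FPKM in CNS and at 36.5 and 37.4 FPKM in dLN. Within 0.1 of Foxp3 there were 32 genes. Of the 9 genes at or above that level, Lrrc32 was the closest to Foxp3 (0.12, place 61), followed by Nrp1 (0.25, place 835). Il10 (0.55, place 2854), Ikzf2 (0.74, place 4052) and Nt5e (1.81, place 7493) came after. Gpr83 (0.15), Ikzf4 (0.59) and Ebi3 (0.79) were below that level and were not ranked.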

How the data were processed

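RNA of sorted effector CD4 cells was measured in 4 libraries, 2 per tissue. Trimming, mapping and FPKM are the work of the authors, whose deposited values cover 33819 RefSeq transcripts of mm10 in 1 table per tissue. The program that computed FPKM is not given in the sources used here. The CNS header holds both library names in one cell, and the value columns were taken to follow the order of the names. FPKM was summed by gene symbol, leaving out 565 transcripts without one.

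A gene was tested when its mean reached 1 FPKM in CNS or in dLN. The test was lmFit and eBayes (with a trend) of limma 3.58.1 under R 4.3.3, run on log2(FPKM + 1), and p-values were adjusted by Benjamini-Hochberg over all genes tested. Depth came from whole-fragment steps (91.3% to 93.5% of low values within 0.05 of a whole number, 10% by chance). The depth and limma steps were tested on simulated data (largest depth error 0.0478%). Strand and overlaps came from GENCODE M21. The rest was done in Python 3.11.15 (matplotlib 3.10.9, scipy 1.17.1, pandas 2.3.3, numpy 2.4.6).

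Genes named are the 9 genes, genes of lists of up to 14 entries and, of longer lists, the 6 most abundant and the 2 called genes with the largest log2 ratio in each direction, and the 5 genes most like Foxp3. Marker genes and Klrg1, Tnfrsf18, Tgfbr1, Tgfbr3, Tgfb3, Itgb6, Maf, Nfil3 and Prdm1 were named after their values were seen. The members and lists were chosen with earlier results of these data known. Alternatives covered pseudocounts, 4 scalings, the highest transcript, 2 filters, eBayes with no trend, a block for replicate number, a minimum size of the log2 ratio and each library left out. Applying them to the pathway lists was decided after seeing the data.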

Additional observations from a re-analysis of the deposited data

How the results depend on the processing

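Over 16 alternatives, the 7 called genes kept their direction and call in 111 of 111 comparisons, and the 9 genes in 137 of 141. Part of this was fixed in advance. The 2 filters, the replicate block, eBayes with no trend and the minimum size leave the log2 ratio of a gene unchanged. The minimum size also keeps the adjusted p, and the highest transcript changes the values of no gene but Foxp3. The exceptions were Ikzf4, called lower with the same FPKM sum per library (-0.41) and when scaled to T cell genes (-1.70), and Ebi3, whose sign turned when scaled to T cell genes (-1.26, called) and without CNS replicate 2 (-0.063, not called; 0.42 without CNS replicate 1). With a mean of at least 5 FPKM required, Gpr83, Ikzf4 and Ebi3 were not tested and 5 genes were called lower, and otherwise 6 to 8 were. The median log2 ratio of the 9 genes was -1.40 with the same FPKM sum, -2.75 when scaled to T cell genes and between -1.47 and -1.13 with single libraries left out. The median over all genes moved by -0.171 with the same FPKM sum, 0.116 with the same upper quartile and -1.57 when scaled to T cell genes, and genes called fell from 7968 to 4168 once ratios nearer to 0 than 1 or -1 were left out. Among the pathway genes, scaling to T cell genes gave 19 higher and 87 lower in place of 45 and 54. The cause of these changes was not tested, apart from the stricter thresholds, which leave fewer genes by construction. A replicate block gave 7828 calls and changed the call of none of the 9 genes. The study's methods describe no pairing, so replicate numbers were not read as pairs. Deviations of libraries with the same number correlated at 0.0933, which cannot exclude a pairing with 2 libraries per tissue. Leaving out a library leaves 1 in its tissue, assumed to vary like the other tissue.

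Depth limits Gpr83 in CNS, at 7 and 12 fragments. With 2 libraries per tissue, stimulation, sex-linked transcripts and other cell types follow or cut across the same split, and FPKM of each table was set by its own libraries. Regulatory and other effector CD4 cells were not separated, and protein was not analysed here.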
